A study of Homo sapiens with 5 samples.

Results

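The 10 genes described here are long noncoding RNA genes that carry small nucleolar RNAs (snoRNAs) in their introns. They were taken by symbol from the deposited table and are GAS5 (ENSG00000234741), SNHG1 (ENSG00000255717), SNHG3 (ENSG00000242125), SNHG5 (ENSG00000203875), SNHG6 (ENSG00000245910), SNHG7 (ENSG00000233016), SNHG8 (ENSG00000269893), SNHG12 (ENSG00000197989), SNHG15 (ENSG00000232956) and ZFAS1 (ENSG00000177410). They are 10 of 57773 gene identifiers, each found in 1 row. All 10 averaged 1 TPM or more over the libraries (a share of transcripts scaled for gene length), as did 14180 genes in all, which are the tested genes below. The cells were a Dicer knockout of HCT116, a human colorectal carcinoma line, and so lacked the enzyme that cuts microRNAs out of their hairpins. Cells of this one background received methylated let-7a (let7a-19A in the labels), native let-7a, methylated miR-17 (miR17-13A), native miR-17 or a negative control, and 1 library of total RNA was made from each. The sources used here do not say whether the line is a single clone, what the control oligonucleotide was or how long after transfection the RNA was taken. The study asked how methylation of a microRNA affects the breakdown of its target RNAs.

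SnoRNA host genes are transcribed and spliced like messenger RNA genes, but it is the introns that yield the functional snoRNAs, which guide chemical modification and cleavage of ribosomal RNA. Box C/D snoRNAs direct ribose methylation and box H/ACA snoRNAs direct the conversion of uridine to pseudouridine. Many host transcripts begin with a terminal oligopyrimidine tract, like the messenger RNAs of ribosomal proteins. The spliced exons of several of them, GAS5 among them, are known to be short-lived because ribosomes enter them and nonsense-mediated decay removes them.

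The microRNA sequences are shown first because the comparisons rest on their seeds, bases 2 to 8, which pair with target RNAs and stand in capitals. They are the mature human sequences of RefSeq (GRCh38.p14), not the transfected oligonucleotides, whose sequences were not part of the material used here.
hsa-let-7a-5p: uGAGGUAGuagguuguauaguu
hsa-miR-17-5p: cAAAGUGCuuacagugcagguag
The same let-7a sequence is encoded at chr9:94175962-94175983 on the plus strand, chr11:122146568-122146589 on the minus strand and chr22:46112752-46112773 on the plus strand, and miR-17 at chr13:91350618-91350640 on the plus strand. Base 19 of let-7a and base 13 of miR-17, counted from the 5′ end, are both A, which are the positions that the labels' 19A and 13A appear to name.

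Few transcripts of the 10 genes held a seed match. A match was a heptamer complementary to bases 2 to 8 (CTACCTC for let-7a, GCACTTT for miR-17), or to bases 2 to 7 followed by A (TACCTCA for let-7a and CACTTTA for miR-17), on the transcript strand anywhere in a GENCODE 29 transcript. The paired heptamers of each microRNA overlap, so an 8-base site counts once. A let-7a match occurred in 4 of 5 SNHG6 transcripts and in 2 of 17 SNHG12 transcripts. A miR-17 match occurred in 1 of 3 SNHG3 transcripts and in 8 of 23 SNHG5 transcripts. GAS5, SNHG1, SNHG7, SNHG8, SNHG15 and ZFAS1 had neither in any annotated transcript. Among 4063 transcripts of 300 to 2500 bases from the long noncoding genes tested, 7.26% held a let-7a match and 12.0% a miR-17 match. The windows below show the match in capitals for SNHG12 and SNHG3, each from the longest transcript that holds it.
SNHG12, let-7a match: aagcgactctcCTACCTCAtcctcccgagt
SNHG3, miR-17 match: ccccttgggttCACTTTAtattggcagttt
They lie in GRCh38 at chr1:28580194-28580223 (minus strand, exon 2 of 4) and chr1:28509762-28509791 (plus strand, exon 3 of 3). The 8 bases in SNHG12 are the full let-7a site, whereas SNHG6 had the 7-base form TACCTCA alone. A match is a string of letters and was not tested as a binding site.

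The starts of the genes are shown because pyrimidine tracts at a transcript start mark the ribosomal protein class. RefSeq promoters (GRCh38.p14) were found for 8 of the 10 genes and are printed from 20 bases before the listed start to 30 bases from it onward. Capitals mark the unbroken run of C and T that begins at the start itself.
ZFAS1: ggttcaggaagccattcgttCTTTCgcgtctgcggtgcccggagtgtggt
SNHG5: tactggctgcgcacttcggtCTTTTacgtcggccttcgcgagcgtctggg
SNHG7: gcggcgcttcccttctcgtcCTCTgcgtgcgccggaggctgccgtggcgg
SNHG12: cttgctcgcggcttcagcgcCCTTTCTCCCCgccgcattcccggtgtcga
SNHG1: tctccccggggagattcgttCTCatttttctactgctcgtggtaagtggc
SNHG8: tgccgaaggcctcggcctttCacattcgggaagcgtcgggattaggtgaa
GAS5: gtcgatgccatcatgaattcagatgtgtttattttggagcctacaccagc
SNHG3: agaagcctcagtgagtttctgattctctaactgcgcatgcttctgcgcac
The windows are chr20:49278622-49278671 (plus strand), chr6:85678704-85678753 (minus), chr9:136728155-136728204 (minus), chr1:28581844-28581893 (minus), chr11:62855856-62855905 (minus), chr4:118278742-118278791 (plus), chr1:173869016-173869065 (minus) and chr1:28505923-28505972 (plus). A start at C followed by at least 3 more pyrimidines was present in 4 of the 8 genes, ZFAS1, SNHG5, SNHG7 and SNHG12. The same start was listed for 61.5% of 78 cytosolic ribosomal protein genes, for 5.45% of all 35116 promoters and for 6.46% of the 13891 promoters of tested genes. SNHG1 and SNHG8 also started at C, with runs of 3 and 1 pyrimidines, while the listed starts of GAS5 and SNHG3 were A and G, so their windows hold no capitals. Only 1 start per gene is listed, so a missing tract speaks for that start alone.

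The host genes spanned a wide range of abundance. ZFAS1, which hosts the SNORD12 family, was the most abundant of the 10 in every library. It ranked 3 of 1191 long noncoding genes tested by mean TPM. SNHG6, host of SNORD87, ranked 6, GAS5, host of a large box C/D cluster, ranked 8 and SNHG8, host of SNORA24, ranked 10. SNHG12 and SNHG15 were the least abundant, with means of 11.3 and 13.2 TPM against 768.1 TPM for ZFAS1. Together the 10 genes held 1960.9 TPM with methylated let-7a, 1936.9 with native let-7a, 2097.2 with methylated miR-17, 1924.4 with native miR-17 and 1444.3 in the negative control. ZFAS1, GAS5 and SNHG6 made up 75.8%, 73.3%, 77.8% and 78.6% of that sum in the 4 microRNA libraries, in the same order, and 73.2% in the control. The summed level was thus lowest in the control, and it was so without SNHG6 too (1606.5, 1569.8, 1712.2 and 1536.4 TPM in the microRNA libraries against 1282.6 TPM).

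**Figure D1:**
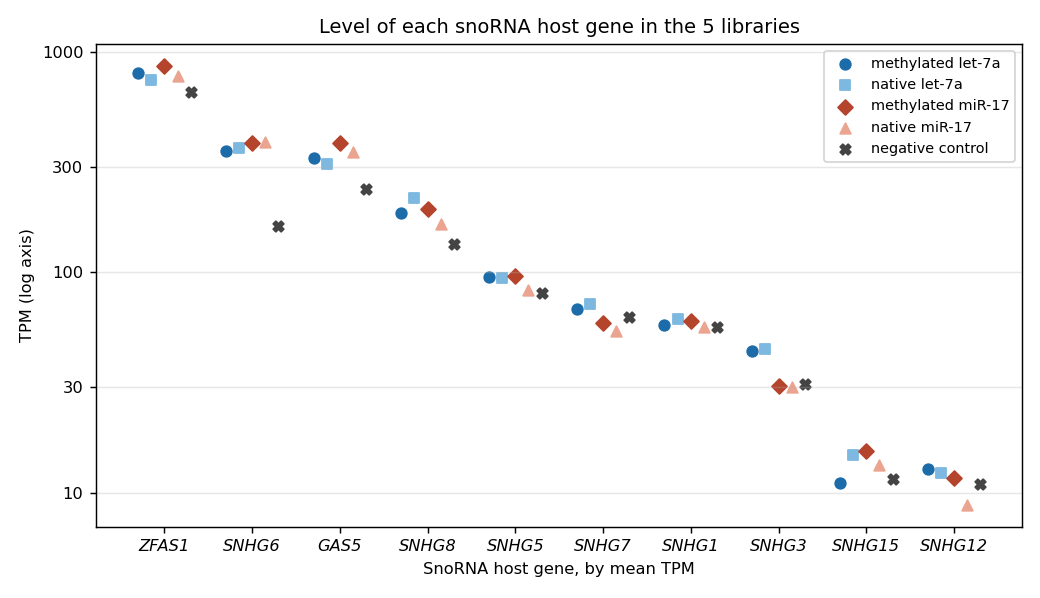
Level of each of the 10 snoRNA host genes in TPM (log axis) in the 5 libraries, 1 point per library, with genes ordered by mean level. SNHG6 shows the widest gap, with 354.4 to 388.0 TPM in the microRNA libraries and 161.7 TPM in the negative control.

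Depth and replication limit what follows. Each group is 1 library and depth is unknown for TPM values, so no difference has a replicate check, and no p-value, interval or standard deviation is given. TPM gives a gene's part of a fixed total per library, so more RNA per cell and more cells with the RNA cannot be told apart. The libraries carried 9.36% to 12.6% of their TPM in mitochondrially encoded transcripts, the most in the control. Of 9 epithelial markers, EPCAM, KRT8, KRT18, KRT19 and CDH1 were above 60 TPM and CDX2 at 8.8 to 13.6 TPM in all libraries, while VIL1, LGALS4 and CEACAM5 were at 0 to 0.2 TPM. The 5 blood markers summed to 0.4 to 1.3 TPM, and the 5 fibroblast and endothelial markers found to 11.5 TPM in the control and 15.0 to 17.1 TPM elsewhere, nearly all from COL1A1.

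SNHG6 differed most from the control, and by a similar amount in all 4 microRNA libraries. It had 354.4 TPM with methylated let-7a, 367.1 TPM with native let-7a, 385.0 TPM with methylated miR-17 and 388.0 TPM with native miR-17, against 161.7 TPM in the negative control. The microRNA libraries thus lay within a narrow band and the control stood alone below it. Differences of log2(TPM + 1), the scale used for all differences here, were 1.13, 1.18, 1.25 and 1.26 over the same control. These placed SNHG6 at rank 122, 115, 108 and 116 from the highest of 14180 tested genes. Only 36 of those genes (0.254%) were at least 2-fold above the control in all 4 microRNA libraries, and SNHG6 was the only one of the 10 host genes among them. Since the 4 differences share 1 control library, they are not independent of each other. Against the mean of the other microRNA's libraries in place of the control, SNHG6 was at -0.12 with methylated and -0.07 with native let-7a. It was at 0.09 with methylated miR-17 and slightly above that with native miR-17. SNHG6 is the member with a let-7a match in 4 of 5 transcripts, and its level with native let-7a was 2.26-fold that of the control in TPM + 1. Any bearing of the match on this level was not tested. MCMDC2, whose annotated exons overlap SNHG6 on the other strand, was at 0.3 to 0.4 TPM in every library.

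The heptamer GGTTGTG, which an earlier analysis of these same libraries had picked out in genes low in the control, was also looked for on the transcript strand. It occurred in 4 of 5 SNHG6 transcripts and in none of the other 9 genes, against 4.33% of the 4063 long noncoding transcripts above. Of 13842 tested genes found in GENCODE 29, 3340 held it in at least 1 transcript. Among these, 1.26% were at least 1.5-fold above the control in all 4 microRNA libraries, against 0.867% of the 10502 without it. Because the heptamer was picked on these libraries, its presence in SNHG6 and these shares are a description and support nothing. Its part in the SNHG6 values was not tested.

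The exonic RNA of GAS5 is known to accumulate in growth-arrested cells and to bind the glucocorticoid receptor. GAS5 was lowest in the control as well. Its levels were 329.5 TPM with methylated let-7a, 310.2 TPM with native let-7a, 384.3 TPM with methylated miR-17 and 349.6 TPM with native miR-17, and 238.0 TPM in the control. It was higher with miR-17 than with let-7a, and within each microRNA higher with the methylated form. The log2 differences from the control were 0.47, 0.38, 0.69 and 0.55. In the control GAS5 was the second most abundant of the 10 genes and SNHG6 the third, whereas SNHG6 stood above GAS5 in all 4 microRNA libraries, with methylated miR-17 by less than 1 TPM. GAS5-AS1, annotated opposite GAS5, was listed at 0 in every library.

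SNHG8 had 184.8 TPM with methylated let-7a, 218.0 TPM with native let-7a, 194.0 TPM with methylated miR-17 and 165.5 TPM with native miR-17, against 133.6 TPM in the control. All 4 microRNA libraries lay above the control, with log2 differences of 0.47, 0.70, 0.53 and 0.31. The order within a microRNA was not shared, since the methylated form was the lower with let-7a and the higher with miR-17.

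ZFAS1 had 803.3 TPM with methylated let-7a, 742.7 TPM with native let-7a, 861.4 TPM with methylated miR-17 and 775.4 TPM with native miR-17, against 657.9 TPM in the control. The log2 differences were 0.29, 0.17, 0.39 and 0.24, so the 4 microRNA libraries were above the control and each methylated form above its native form. SNHG5, host of the U50 snoRNAs, had 95.2, 94.1, 96.3 and 83.2 TPM in the same 4 libraries, against 80.8 TPM in the control. Its differences were 0.23, 0.22, 0.25 and 0.04, and native miR-17 was close to the control. SNHG6, GAS5, SNHG8, ZFAS1 and SNHG5 were the 5 members above the control in all 4 microRNA libraries, a pattern shown by 21.1% of all tested genes.

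SNHG3 and SNHG7 split by microRNA. Both host box H/ACA snoRNAs, as do SNHG8, SNHG12 and SNHG15, which did not split in this way. SNHG3, which carries the U17 snoRNAs that act in early cleavage of the ribosomal RNA precursor, had 44.1 TPM with methylated let-7a and 44.7 TPM with native let-7a. With methylated miR-17 it had 30.5 TPM and with native miR-17 30 TPM, against 31.2 TPM in the control. It was therefore higher in the let-7a libraries alone, by 0.49 and 0.51, while the miR-17 libraries were at -0.03 and -0.05, and centring on the median of all genes turned the first of these to 0.03. SNHG7 had 68.2 TPM with methylated let-7a, 71.7 TPM with native let-7a, 58.5 TPM with methylated miR-17 and 54.3 TPM with native miR-17, against 62.4 TPM in the control. Its differences were 0.13, 0.20, -0.09 and -0.20, with the control between the let-7a and the miR-17 libraries. SNHG3 shares annotated exons with RCC1 on the same strand, and SNHG7 overlaps FAM69B on the other strand. No source used here says how the authors' counting divided such reads, so these values are less certain. FAM69B had 11.9 and 12.2 TPM with methylated and native let-7a, 17.6 and 17.2 TPM with methylated and native miR-17 and 16.3 TPM in the control. It was thus lower with let-7a than with miR-17, where SNHG7 was higher, while within each microRNA the methylated and native forms stood in the same order for both genes.

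SNHG1 varied least. This host of a box C/D cluster had 57.5 TPM with methylated let-7a, 61.3 TPM with native let-7a, 60.2 TPM with methylated miR-17, and 56.3 TPM both with native miR-17 and in the control. Its highest and lowest libraries differed by 0.12 on the log2 scale, and only 2.45% of tested genes had a smaller range, the median being 0.42. For SNHG6 the range was 1.26, wider than in 95.3% of tested genes. The ranges of the other 8 host genes lay between 0.25 for SNHG5 and 0.70 for SNHG8.

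The rarest members were SNHG15, host of SNORA9, and SNHG12, host of several H/ACA snoRNAs and SNORD99. SNHG15 had 11.1 TPM with methylated let-7a, 14.8 TPM with native let-7a, 15.4 TPM with methylated miR-17 and 13.3 TPM with native miR-17, against 11.5 TPM in the control. Methylated let-7a was next to the control and the other 3 libraries were above it. SNHG12 had 12.8, 12.3, 11.6 and 8.8 TPM in the same order and 10.9 TPM in the control, so native miR-17 alone was below the control. The let-7a libraries were thus above the control for SNHG12, by 0.21 and 0.16. It has the full let-7a site in 2 of 17 transcripts, and TPM per gene does not show which transcripts were present. Any bearing of the site was not tested.

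Taking the 10 genes together, 9 were higher than the control with methylated let-7a and 1 lower, where 41% of all tested genes were higher and 56.1% lower. With native let-7a all 10 were higher, against 49.9% of tested genes higher and 47.9% lower. With methylated miR-17 8 were higher and 2 lower, against 42.1% and 56.3%. With native miR-17 6 were higher, 3 lower and 1 equal, against 51.5% higher and 46.5% lower. The medians of the 10 log2 differences were 0.26, 0.28, 0.32 and 0.12 in that order, beside -0.04, 0.00, -0.06 and 0.02 for all tested genes. SNHG6 carried part of this: without it the median with native miR-17 was 0.04, and the other medians were 0.23, 0.22 and 0.25. Most of these differences were small. At least 1.5-fold higher in TPM + 1 were SNHG6 with methylated let-7a (1 of 10, against 3.34% of tested genes), SNHG6 and SNHG8 with native let-7a (2 of 10, against 4.2%), SNHG6 and GAS5 with methylated miR-17 (2 of 10, against 5.33%) and SNHG6 with native miR-17 (1 of 10, against 6.5%). At least 2-fold higher was SNHG6 alone in each comparison, a size reached by 1.17%, 1.21%, 1.3% and 1.68% of tested genes. None was at least 1.5-fold lower, a call that 2.98%, 3.86%, 10.1% and 5.93% of tested genes received in these comparisons. The 10 genes were chosen with earlier results of these data known, so these counts are a description. The 4 comparisons share the control library. With the libraries of the other microRNA as reference in its place, the medians were 0.01, 0.07, 0.02 and -0.13.

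**Figure D2:**
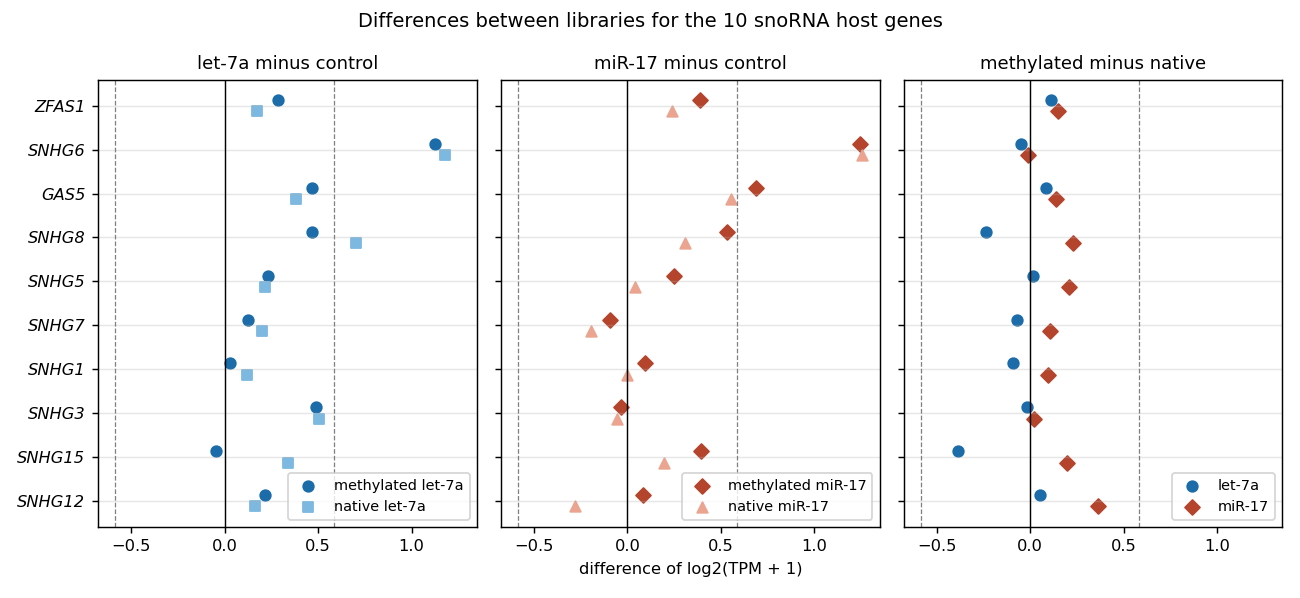
Differences of log2(TPM + 1) for each snoRNA host gene (rows), with let-7a minus control on the left, miR-17 minus control in the middle and methylated minus native on the right; dashed lines mark 1.5-fold. SNHG6 lies beyond the line in all 4 comparisons with the control, GAS5 and SNHG8 in 1 each, and no gene does so between methylated and native forms.

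**Figure D3:**
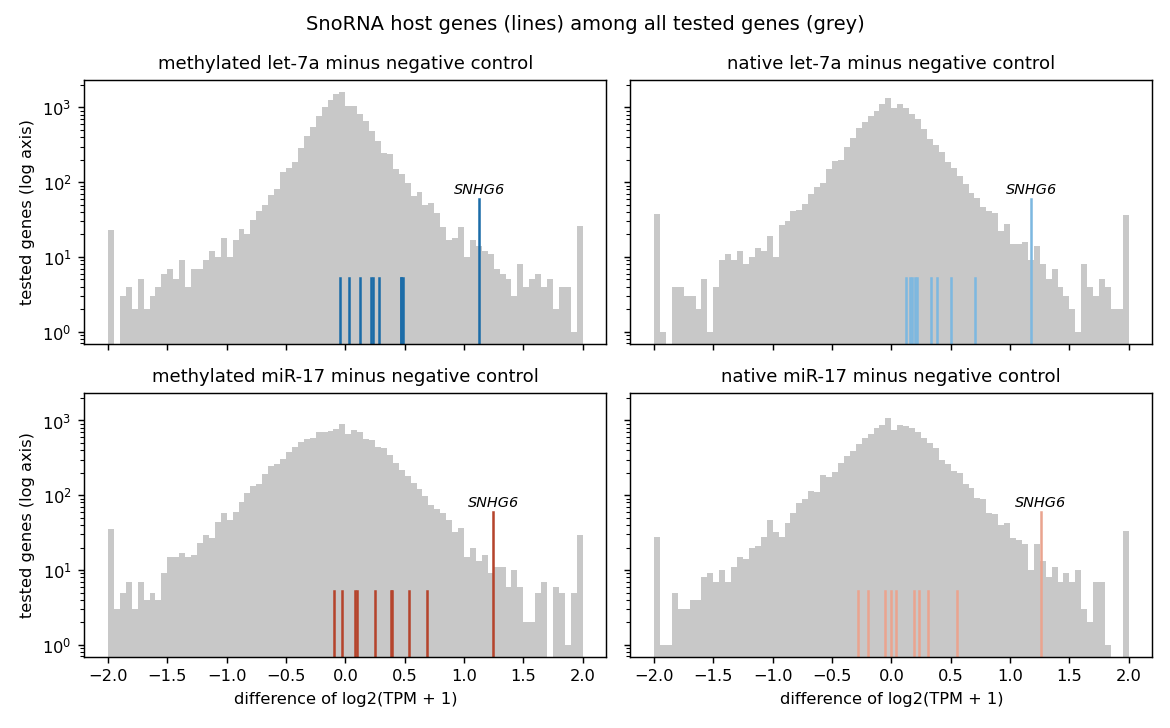
Number of tested genes (grey, log axis) by difference of log2(TPM + 1) from the negative control in each microRNA library, with values beyond 2 in either direction placed in the end bins, and the 10 snoRNA host genes as coloured lines. Most lines fall on the positive side within the main body of genes, and SNHG6, the tall line at 1.13 to 1.26, lies in the upper tail.

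The comparison of methylated with native forms asks what the methyl group changed. Between the let-7a forms, 4 of the 10 genes were higher with the methylated form and 6 lower, with a median of -0.03, the same at 2 decimals as that of all tested genes, of which 39.8% were higher and 57.1% lower. The extremes were ZFAS1 at 0.11 and SNHG15 at -0.38, with 11.1 TPM for the methylated and 14.8 TPM for the native form. Between the miR-17 forms, 9 were higher with the methylated form and 1 lower, where 28.4% of tested genes were higher and 69% lower. The median was 0.14 beside -0.09 for all tested genes, from SNHG6 at -0.01 to SNHG12 at 0.36. None of the 10 genes was at least 1.5-fold higher in either comparison (2.18% of tested genes for let-7a, 1.54% for miR-17) or lower (2.3% and 2.62%). The direction was thus shared by most of the 10 genes for miR-17, with small steps. SNHG3 went to the other side of 0 under at least 1 rescaling in both comparisons, from -0.02 and 0.02, and SNHG6 did so with median centring for miR-17.

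Ribosomal protein genes, of which 61.5% of 78 had the pyrimidine start described above, were mostly above the control. Among the host genes that start was listed for 4 of 8, and not for GAS5, SNHG1, SNHG3 or SNHG8. No other start of these genes was looked at, so a missing tract speaks for the listed start alone. It does not show that a gene lacks such a tract. Any bearing of the pyrimidine start on these levels was not tested. Of 79 cytosolic ribosomal protein genes, 77 were above the control with methylated let-7a, 78 with native let-7a, 79 with methylated miR-17 and 77 with native miR-17, with medians of 0.16, 0.16, 0.31 and 0.16. Of all tested genes, 41%, 49.9%, 42.1% and 51.5% were above the control in the same order. Between the miR-17 forms all 79 were higher with the methylated form, with a median of 0.15, and between the let-7a forms 49 were higher and 30 lower, with a median of 0.01. Among the 25 that carry snoRNAs themselves, the medians over the control were 0.14, 0.12, 0.27 and 0.14. No test sets these lists against the 10 host genes.

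Other noncoding hosts were described from a chosen list of 15 that is not complete. Of these, 11 had a row, 4 of these were listed at 0 in all libraries and 7 were tested. SNHG9 had 62.9 TPM with methylated let-7a, 76.1 TPM with native let-7a, 55.2 TPM with methylated miR-17 and 50 TPM with native miR-17, against 39.5 TPM in the control, and was the highest of the list in all 4 comparisons with the control. SNHG16 was the lowest of the list, with 146.0, 128.2, 108.2 and 97.4 TPM in the same order and 146.1 TPM in the control. It thus matched the control with methylated let-7a and was lowest with native miR-17, at a log2 difference of -0.58. SNHG16 had a miR-17 match in 4 of 8 transcripts and a let-7a match in 3 of 8, and SNHG9 had neither in 2 transcripts. EPB41L4A-AS1 had a miR-17 match in 4 of 4 transcripts and SNHG11 in 1 of 15, and both were above the control with both miR-17 forms. With methylated and native miR-17 EPB41L4A-AS1 had 37.9 and 33.9 TPM against 31.5 TPM, and SNHG11 9 and 8.3 TPM against 8.1 TPM. Any bearing of a match on these levels was not tested. DANCR, host of SNORA26, had 143.4, 158.1, 155.5 and 141.2 TPM in the microRNA libraries and 130 TPM in the control. The medians of the 7 were 0.14, 0.26, 0.14 and 0.03 over the control.

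Protein-coding snoRNA hosts outside the ribosomal protein class stayed nearer to the control, with medians over 19 genes of -0.01, 0.03, 0.04 and -0.03. NOP56, itself a core protein of box C/D particles, was their highest, at 97.4, 114.5, 110.2 and 110.2 TPM against 87.2 TPM in the control. HSPA8, the constitutive heat shock protein that hosts the SNORD14 family, was their lowest, at 952.9, 938.7, 660.9 and 601.9 TPM against 1109.8 TPM. Of 15 other long noncoding RNAs tested, 8, 6, 7 and 9 were above the control in the same order of libraries, with medians of 0.02, -0.04, -0.06 and 0.05.

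**Figure D4:**
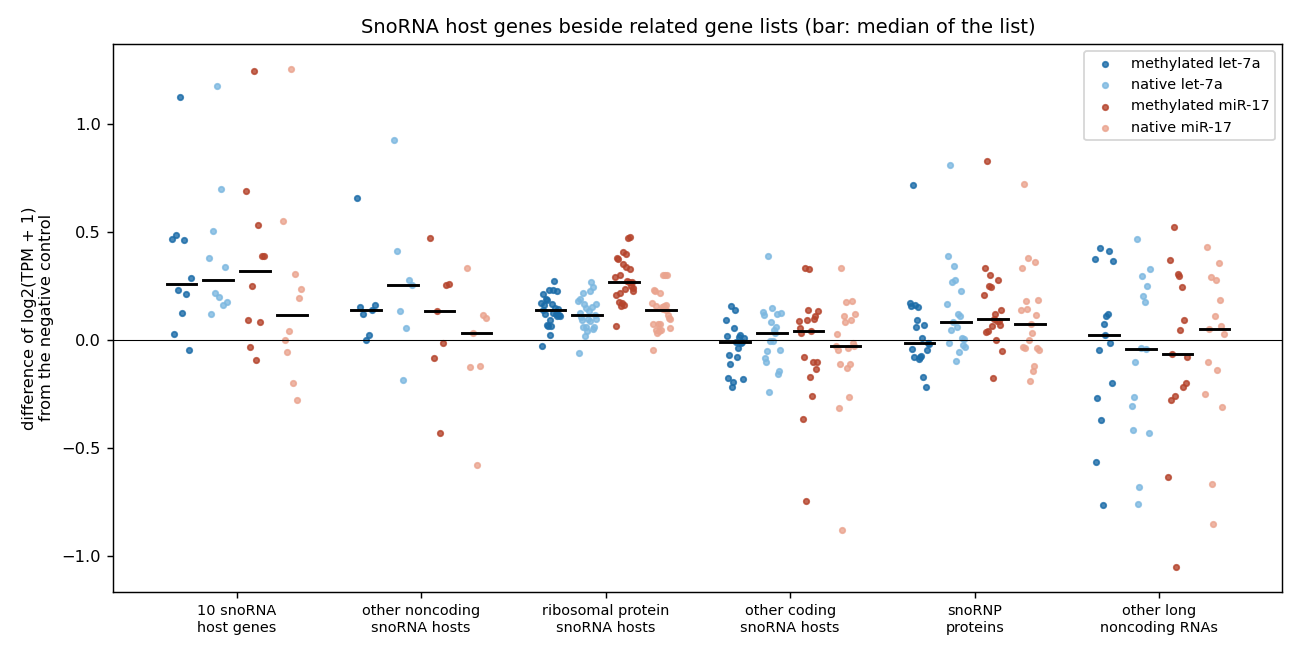
Difference of log2(TPM + 1) from the negative control for the members of 6 gene lists, 1 point per gene, coloured by microRNA library, with a bar at each list's median. The medians of the 10 host genes lie at 0.12 to 0.32 and those of the ribosomal protein hosts at 0.12 to 0.27, while those of other coding hosts lie at -0.03 to 0.04.

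The machinery around the host RNAs was described from lists of snoRNP proteins and decay factors. Of 19 snoRNP core and assembly proteins, 9 were above the control with methylated let-7a, 14 with native let-7a, 16 with methylated miR-17 and 11 with native miR-17. Of all tested genes, 41%, 49.9%, 42.1% and 51.5% were above it in the same order. NHP2L1, the shared protein that binds the kink-turn of box C/D snoRNAs, was at least 1.5-fold higher in each, at 191.0, 203.5, 206.1 and 191.4 TPM against 115.6 TPM in the control. It was the only one of the 19 past that size. Of 19 nonsense-mediated decay and exon junction factors, none was past 1.5-fold in any comparison with the control. In these comparisons 3.34% to 6.5% of tested genes were that much higher and 2.98% to 10.1% that much lower. The medians of the 19 factors were -0.04, 0.01, -0.01 and 0.11. UPF1, the central helicase of the pathway, had 51.2, 56.6, 53.6 and 57.2 TPM against 59.9 TPM. Of 14 known substrates of that decay other than snoRNA hosts, 6, 6, 7 and 9 were above the control, with medians of -0.11, -0.04, 0.00 and 0.05. SMG5 and UPF3B were in both the factor and the substrate list. Values per gene do not separate spliced forms, so they do not measure the decay of these substrates. UPP1, the highest in the first 3 comparisons, had 30.1, 38.1, 29.6 and 28.9 TPM against 18.5 TPM. SRSF2, a splicing factor and the lowest in both let-7a comparisons, had 97.4, 106.5, 116.3 and 105.9 TPM against 130 TPM. GADD45B, the lowest in both miR-17 comparisons, had 44.9 TPM with methylated and 45.4 TPM with native miR-17 against 59.3 TPM.

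Several host genes lie beside or across protein-coding genes, whose values are given here beside theirs. ZNFX1, on the strand opposite ZFAS1 with overlapping annotated exons, had 46.4 TPM with methylated let-7a, 45.8 TPM with native let-7a, 19 TPM with methylated miR-17 and 20.3 TPM with native miR-17, against 44.2 TPM in the control. It was thus lower with both forms of miR-17, by -1.18 and -1.09, where ZFAS1 was higher by 0.39 and 0.24. A miR-17 match occurred in 5 of 6 ZNFX1 transcripts and in 0 of 10 ZFAS1 transcripts. Other listed neighbours also held one: CCM2 in 16 of 20 transcripts, ZBTB37 in 3 of 4, SYNCRIP in 2 of 4 and TRNAU1AP in 3 of 10. The share of transcripts with a match given above is for long noncoding genes, and none was taken for coding genes. With methylated and native miR-17 CCM2 had 10 and 10.8 TPM against 9.8 TPM in the control. ZBTB37 had 3.1 and 3.7 TPM against 4.4 TPM, and SYNCRIP 115.6 and 115.9 TPM against 146.1 TPM. Any bearing of a match on these levels was not tested. SLC3A2, an amino acid transporter subunit next to SNHG1 on the other strand, had 325.3, 378.3, 333.6 and 351.8 TPM in the microRNA libraries against 241.9 TPM, while SNHG1 stayed at 56.3 to 61.3 TPM. RCC1, which shares exons with SNHG3, had 154.5 and 154.8 TPM with methylated and native let-7a and 137.7 and 142 TPM with methylated and native miR-17, against 155.4 TPM in the control. It was level with the control with let-7a, where SNHG3 was higher by 0.49 and 0.51, and both genes were higher with let-7a than with miR-17. TRNAU1AP, opposite SNHG12, had 16.1 to 16.7 TPM in the microRNA libraries and 18.5 TPM in the control. The kit keeps strand, but no source used here says whether the counting used it, so overlapping partners may have traded reads.

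**Figure D5:**
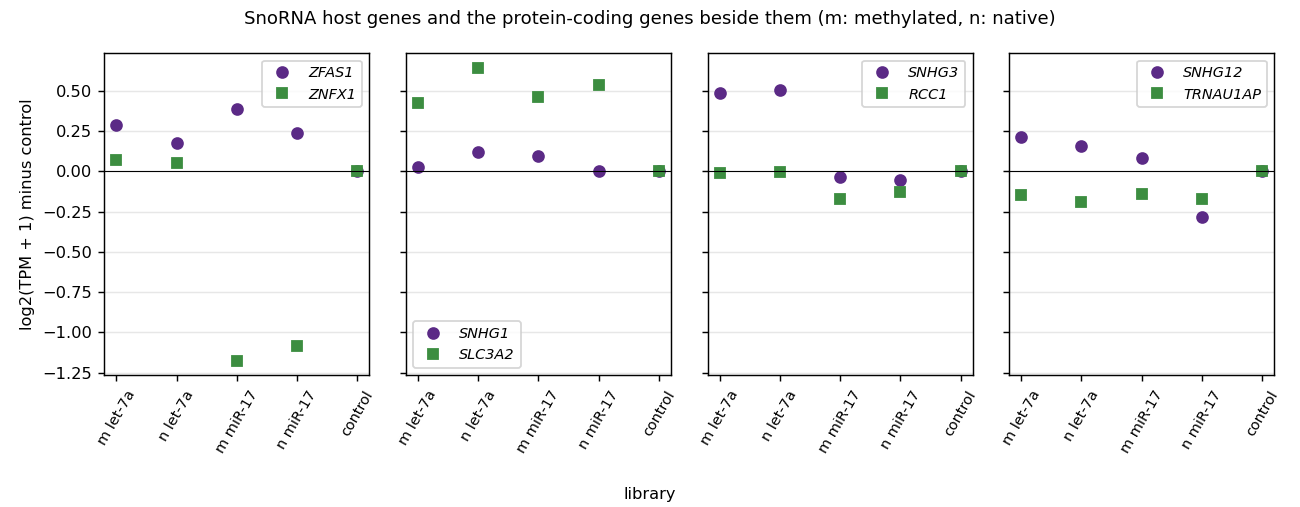
Level relative to the negative control, as a difference of log2(TPM + 1), of 4 snoRNA host genes (circles) and the protein-coding gene beside or across each (squares) in the 5 libraries (m: methylated, n: native), with the control at 0. ZNFX1 lies at -1.18 and -1.09 with miR-17 where ZFAS1 lies at 0.39 and 0.24, and SLC3A2 lies above SNHG1 in all 4 microRNA libraries.

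The snoRNAs themselves were not measured by these libraries. Of 34 snoRNAs listed for the 10 hosts, 13 had a row under that exact name and all 13 were at 0 in every library. Of 859 rows named as snoRNAs or Cajal body RNAs, 3 were above 0 in any library. The TPM values therefore describe the spliced or unspliced host RNA and carry no information on snoRNA output.

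Among 6214 other genes averaging 20 TPM or more, the 5 whose profile over the 5 libraries was most like the mean profile of the 10 hosts were ZNF32, B2M, HHLA3, S100A16 and CLDN7. Likeness was the largest absolute difference between centred log2(TPM + 1) profiles, which was 0.05 for ZNF32 and 0.06 for CLDN7, against a span of 0.40 in the host profile itself. B2M, the light chain of class I major histocompatibility molecules, had 490.4, 503.0, 467.6 and 439.0 TPM in the microRNA libraries and 379.2 TPM in the control. By the same measure, chosen after its values were seen, the genes most like SNHG6 were MNAT1, CANX, CACUL1, TPD52L2 and MFSD3. MNAT1, a subunit of the CDK-activating kinase, had 24.2, 24.8, 26.2 and 28.1 TPM against 10.4 TPM in the control.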

How the data were processed

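The values are TPM per gene as deposited by the authors, with 1 decimal, for 5 total RNA libraries in 1 table. Per the labels' protocols, RNA was extracted with Isogen and libraries were made with a stranded, ribosomal RNA-depleting TruSeq kit. The build was hg19, per the submitters' processing notes. Aligner, counting tool and annotation: not given in the sources used here. Read depth is unknown, so counting error could not be set.

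Rows were matched by symbol. Each difference subtracts the second library's log2(TPM + 1) from the first's, and 14180 genes averaging 1 TPM or more entered every comparison. A pseudocount understates changes of low genes. A ratio of 1.5 or more in TPM + 1 counted as a call by size, which is no test. With 1 library per group no test was run. The rule for named genes was all 10 hosts, the highest, lowest or adjoining gene of each list, and the 5 genes most like the hosts' mean profile; other list members were named to describe a list after their values were seen. Members and lists were chosen with earlier results of these data known. Sequences came from RefSeq and from GENCODE 29, both on GRCh38 rather than hg19, and 13842 of the 14180 genes were found in GENCODE 29. Python 3.11.15, pandas 2.3.3 and numpy 2.4.6 were used, and the counting was tested on simulated data. Alternatives were other pseudocounts, filters, scalings and a reference other than the control.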

Additional observations from a re-analysis of the deposited data

Results flagged for a closer look

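SNHG3 and SNHG7 were above the control in both let-7a libraries and below it in both miR-17 libraries. The mean difference from the control with let-7a minus that with miR-17 was 0.54 (log2) for SNHG3 and 0.31 for SNHG7. For SNHG3 the miR-17 values lay within 0.06 of the control. This difference between the microRNAs was not tested, and the shared control cancels from it.

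SNHG8 and SNHG15 were lower with the methylated form of let-7a than with its native form and higher with the methylated form of miR-17 than with its native form. The methylated-minus-native difference for let-7a less that for miR-17 was -0.47 for SNHG8 and -0.58 for SNHG15. Each rests on 4 single libraries and was not tested. SNHG15 was at 11.1 to 15.4 TPM, so its values are among the least certain of the 10.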

How the results depend on the processing

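With 1 library per group, no leave-one-out or test was possible. No paired analysis was possible because each group holds 1 library and no test was run. The median of the 10 hosts moved by less than 0.1 (log2) with a pseudocount of 0.1 or 5, with TPM rescaled without mitochondrially encoded genes, with or without the 20 most abundant genes, with median centring, and, in a setting added after the data were seen, without SNHG6. It depended on the reference. With the libraries of the other microRNA in place of the control it was 0.011 with methylated let-7a, 0.070 with native let-7a, 0.022 with methylated miR-17 and -0.13 with native miR-17, and SNHG6 changed sign to -0.12 with methylated and -0.074 with native let-7a. Of 340 values of single hosts under these settings, 301 moved by less than 0.1 in the same direction, 37 moved by more or crossed 0 without having been past 1.5-fold, and 2 reversed. Most of the moved values came from the change of reference. With the libraries of the other microRNA in place of the control only 7 stayed the same in this sense, while 31 moved and 2 reversed. The cause was not tested.

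Counts of all tested genes past the rule of size followed the settings. They are given for methylated let-7a higher and lower, native let-7a higher and lower, methylated miR-17 higher and lower and native miR-17 higher and lower than the control, then methylated over native higher and lower for let-7a and for miR-17. As reported they were 474, 422, 595, 548, 756, 1435, 922, 841, 309, 326, 219 and 371. With a 2-fold rule they were 166, 140, 172, 167, 184, 337, 238, 243, 133, 138, 94 and 138. With a pseudocount of 5 they were 149, 109, 209, 196, 290, 641, 330, 408, 84, 96, 54 and 92. With a mean of at least 5 TPM they changed to 184, 156, 286, 265, 422 (methylated miR-17 higher), 496, 543, 77, 83, 46 and 100. With no filter they changed to 1019, 942, 1123, 1058, 1267 (methylated miR-17 higher), 1547, 1319, 807, 829, 640 and 902. With a pseudocount of 0.1 they changed to 675 for methylated let-7a lower, 467 and 549 between the let-7a forms and 349 and 652 between the miR-17 forms. The counts not given here were within 1.5 times those reported.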
